A study of Mus musculus with 24 samples.

Results

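Transcripts of 10 enzymes that form NADPH, or that run in the same routes, were compared across tissues of wildtype (WT) mice and of mice in which Prxl2a was knocked out (KO). The 10 were taken by gene symbol from a table of 19015 genes. They are G6pdx, Pgls, Pgd, Tkt and Taldo1 of the pentose phosphate pathway, the malic enzymes Me1 and Me3, the isocitrate dehydrogenases Idh1 and Idh2, and the NAD kinase Nadk. All 10 passed the filter on low counts in every fit. The mice were female, 12 weeks old and normally fed, and PBS was perfused to clear the blood before tissues were taken. Brain, liver, the inguinal adipose tissue (IAT) and the dorsal brown adipose tissue (BAT) each gave 3 WT and 3 KO libraries, 24 in all. Prxl2a encodes a peroxiredoxin-like protein. The strain, the kind of KO allele and whether the 4 tissues came from the same 3 mice of a genotype are details that the labels leave out.

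NADPH carries the electrons for making fatty acids and sterols and for keeping glutathione and thioredoxin reduced. In the cytosol it comes mainly from the oxidative steps of the pentose phosphate pathway, from cytosolic malic enzyme (Me1) and from cytosolic isocitrate dehydrogenase (Idh1). Mitochondria have their own forms, Me3 and Idh2. Nadk is the NAD kinase of the cytosol and makes the NADP that the cytosolic enzymes reduce. Fat and liver use NADPH heavily for lipid synthesis, and the malic enzyme of fat is known as a lipogenic enzyme.

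G6pdx, glucose-6-phosphate dehydrogenase, opens the oxidative branch of the pentose phosphate pathway and lies at chrX:74409483-74428880 (GRCm38.p6). Pgls, the lactonase of the next step, lies at chr8:71592184-71596267, and Pgd, the dehydrogenase that forms the second NADPH of the branch, at chr4:149149991-149166705. Tkt, transketolase (chr14:30549131-30574724), and Taldo1, transaldolase (chr7:141392160-141402976), move carbon between the sugar phosphates of the non-oxidative branch and make no NADPH themselves. Me1 lies at chr9:86581363-86695914 and Me3 at chr7:89632284-89854359. Idh1 lies at chr1:65158616-65186479, Idh2 at chr7:80094845-80118608 and Nadk at chr4:155562381-155591001. The Tkt gene is 10.42 Mb from Prxl2a on chromosome 14. G6pdx overlaps Ikbkg, which also has a row in the table, and how the counting treated strand is not given, so reads of their overlap cannot be told apart. Me3 had counts that were not whole in 20 of the 24 libraries, which means that part of its reads were shared out among sequences, and its values are uncertain for that reason. The other 9 enzymes had whole counts in every library.

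Sequence upstream of Me1, Tkt and Taldo1 is shown, chosen after their values were seen, because these 3 were the enzymes called in IAT by 1 or more of the alternative fits below. Each run of 100 bases lies upstream of the gene's first annotated exon, is printed 5′ to 3′ on the gene's strand, and comes from RefSeq on GRCm38.p6. Capitals mark GC boxes (GGGCGG) and CCAAT boxes (CCAAT), on either strand.

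Me1, chr9:86695954-86696053, minus strand: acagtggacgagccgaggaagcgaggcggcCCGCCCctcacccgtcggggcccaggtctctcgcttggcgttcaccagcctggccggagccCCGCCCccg
Tkt, chr14:30548902-30549001, plus strand: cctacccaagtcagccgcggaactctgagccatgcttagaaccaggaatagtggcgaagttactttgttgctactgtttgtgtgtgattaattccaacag
Taldo1, chr7:141392060-141392159, plus strand: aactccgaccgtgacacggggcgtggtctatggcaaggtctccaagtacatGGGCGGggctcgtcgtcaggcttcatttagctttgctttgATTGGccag

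The printed 100 bases held 76.0% G and C for Me1, 57.0% for Taldo1 and 47.0% for Tkt. The 250 bases upstream of the RefSeq start nearest each run held 72.0% for Me1, 54.4% for Taldo1 and 59.6% for Tkt. The median for the 250 bases upstream of all 32851 RefSeq starts was 52.4%. The GC boxes of Tkt lay at positions -25 to 30 from its RefSeq start, outside the printed run. Windows of 300 bases around the 14 RefSeq starts of the 10 genes were also searched on both strands for the core letters of an antioxidant response element (TGACNNNGC). A match stood in 3 of the 14 windows, beside 12.39% of all 32851 windows. The 3 matches are shown with the bases before them, with the match in capitals.

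Me1, chr9:86695912-86695939, minus strand: ggctcggccgatgccgccgTGACTCAGC
G6pdx, chrX:74428929-74428956, minus strand: cctctcctgaggcgggtcaGCTCAGTCA
Pgd, chr4:149166071-149166098, minus strand: ttttttgtcatttcagagcTGACATTGC

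The Pgd match belongs to the gene's other, downstream start, and the G6pdx match reads on the opposite strand. A sterol response element (TCACNCCAC) was in 0 of the 14 windows and in 1.24% of all windows, and an E-box (CACGTG) in 1 window, of Nadk, and in 7.15% of all. GC boxes were in 10 of the 14 windows, of 9 of the 10 genes, and in 35.66% of all windows. CCAAT was in 6 of the 14 and in 37.41% of all. No match of a motif overlapped a match of another in the 14 windows. These letters are a description of sequence, and nothing about factor binding was measured.

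The libraries held between 12327459 (BAT) and 18257788 (liver) counts. Prxl2a in the KO libraries averaged 1.98% to 5.54% of the WT mean, with no overlap between genotypes in any tissue. The defining markers matched the labelled tissues. The summed adipocyte markers were 6769 to 21774 CPM (counts scaled to library size) in IAT and 12374 to 15922 in BAT, and at most 0.242 in brain. The summed hepatocyte markers were 127733 to 160411 CPM in liver, against 1328 (KO 1) to 5095 (KO 2) CPM in IAT, 131 to 372 CPM in BAT and 2.83 to 474 CPM in brain. Libraries of IAT stood apart from each other in markers of other cell types. Lymphocyte markers summed to 1341 CPM in KO 1 and 672 CPM in KO 3, against 3.34 CPM in KO 2 and 6.22 to 10.7 CPM in WT. Skeletal muscle markers summed to 1082 CPM in WT 1 and 3875 CPM in WT 2, against 4.96 CPM in WT 3 and at most 41.4 CPM in KO. In BAT, WT 1 stood apart with 1697 CPM of muscle markers, against at most 102 CPM in the other 5 libraries.

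The order of the 10 enzymes within a tissue was taken from TPM, which scales transcripts by gene length as well as depth, and differed by tissue in WT mice. In IAT the highest was Me1, with a mean of 2619 TPM (SD 1662, n = 3), the 39th highest mean in the table, followed by Tkt with 2190 TPM (SD 1046) and Taldo1 with 969 TPM (SD 285). In BAT the highest was Tkt, with 2304 TPM (SD 408), followed by Taldo1 with 1632 TPM (SD 190) and Me1 with 706 TPM (SD 276). In liver the highest was Idh1, with 392 TPM (SD 47.0), followed by Me1 with 176 TPM (SD 34.7). In brain the highest was Taldo1, with 164 TPM (SD 7.41), followed by Tkt with 107 TPM (SD 0.660). The sum of the 10 was 7552 TPM in IAT (SD 3240), 6430 TPM in BAT (SD 981), 1163 TPM in liver (SD 117) and 682 TPM in brain (SD 11.8). Me1 made up 32.8% of that sum in IAT and 8.80% in brain, whereas Idh1 made up 33.7% in liver and 5.17% in IAT.

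**Figure D1:**
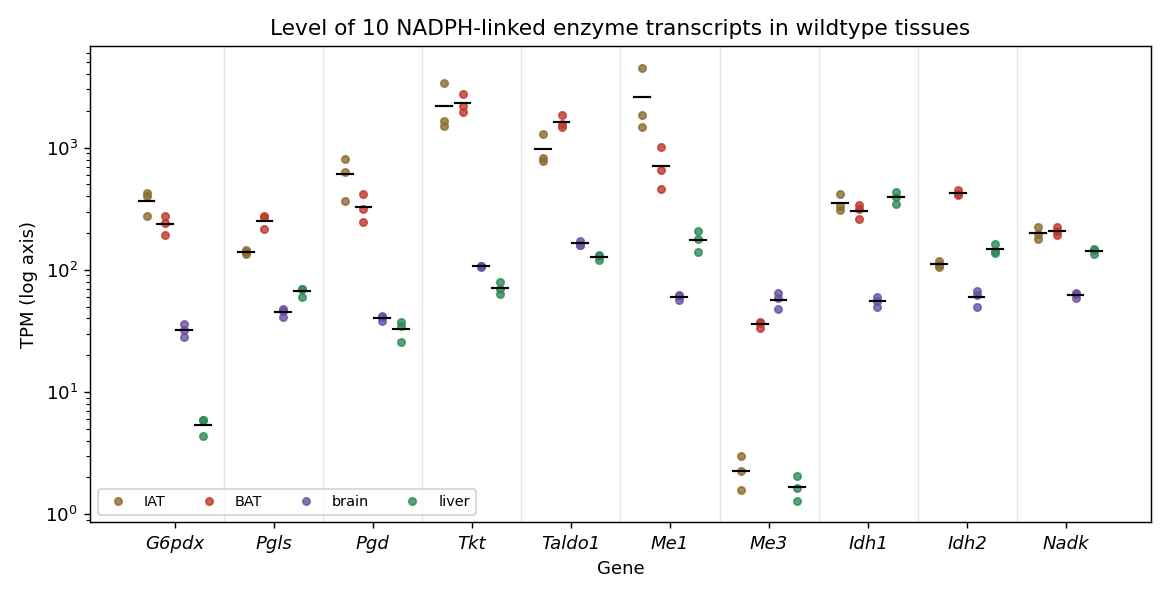
TPM of each enzyme (log axis) in the 12 WT libraries, by tissue; each point is a library and each bar the mean of 3. Me1 and Tkt in IAT and Tkt and Taldo1 in BAT lie at 1476 TPM or above in every library, and G6pdx in liver and Me3 in IAT and liver lie at 5.93 TPM or below.

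Levels of a gene were compared between tissues as CPM normalised over the 12 WT libraries. All 10 enzymes differed between the 4 tissues by edgeR's quasi-likelihood F-test, with adjusted p from 1.73e-10 for Idh2 to 8.98e-07 for Me1. Of the 15810 genes tested, 96.1% did so, and a count of 10 of 10 is near that background. Between single pairs of tissues the share of genes that passed was 57% for IAT against BAT, 80% for IAT against brain, 69.7% for IAT against liver, 79.2% for BAT against brain, 65.7% for BAT against liver and 82.2% for brain against liver. The scaling matters for these comparisons, because TPM moved the median of all genes by up to 1.57 on the log2 scale (brain against liver) relative to CPM. Of the 60 tissue pairs of the 10 enzymes, 51 had the same direction under 4 scalings (TMM, RLE, library totals and TPM), and the other 9 are named below.

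Of the oxidative pentose phosphate enzymes, G6pdx and Pgd were high in both fat depots. G6pdx read 442, 297 and 479 CPM in IAT, 356, 289 and 407 CPM in BAT, 22.9, 21.9 and 18.6 CPM in brain and 15.3, 14.3 and 10.9 CPM in liver. The fat libraries did not overlap with those of brain and liver. On the log2 scale IAT lay 4.91 above liver (SE 0.23, edgeR adjusted p = 8.68e-09), and the difference of 0.21 between IAT and BAT (SE 0.19) did not pass (edgeR adjusted p = 0.369). Pgd averaged 630 CPM in IAT (SD 239), 456 CPM in BAT (SD 120), 76.7 CPM in liver (SD 15.4) and 24.8 CPM in brain (SD 0.61), and its IAT and BAT levels were also not separated (edgeR adjusted p = 0.167). In TPM the order of brain and liver was the opposite for Pgd, with 40.2 TPM in brain and 32.7 TPM in liver. Pgls was highest in BAT, at 105 CPM (SD 13.4), and lowest in brain, at 8.77 CPM (SD 0.55). It read 46.5 CPM in liver (SD 5.47) and 44.1 CPM in IAT (SD 2.14), which did not differ (edgeR adjusted p = 0.558) and changed order in TPM.

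The non-oxidative enzymes were also high in fat. Tkt read 5885, 4300.5 and 4662 CPM in BAT, 5417, 2353 and 2699 CPM in IAT, 259, 280 and 227 CPM in liver and 98.2, 104 and 101 CPM in brain. Every fat library lay above every library of liver and brain. BAT was 49.0 times the mean of brain, and the difference between IAT and BAT, -0.50 on the log2 scale (SE 0.27), did not pass (edgeR adjusted p = 0.137). Taldo1 averaged 1149 CPM in BAT (SD 133), 509.5 CPM in IAT (SD 149), 150 CPM in liver (SD 11.1) and 51.1 CPM in brain (SD 3.51), and here BAT lay above IAT, by 1.17 (SE 0.18, edgeR adjusted p = 0.000227). For both genes liver lay above brain in CPM and below it in TPM.

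The malic enzymes differed in their tissue patterns, mainly in IAT and brain, and both lay higher in BAT than in liver. Me1 read 7203, 2310 and 2978 CPM in IAT, 2141, 998 and 1388 CPM in BAT, 774, 629 and 505 CPM in liver and 51.6, 59.1 and 57.8 CPM in brain. IAT WT 1 was the highest library, and IAT WT 2 lay close to the top of the BAT range. Each step of the order passed, with IAT above BAT by 1.46 (SE 0.40, edgeR adjusted p = 0.00873) and BAT above liver by 1.25 (SE 0.40, edgeR adjusted p = 0.0166). Me3 read 74.2, 84.3 and 76.0 CPM in BAT, 75.5, 72.8 and 54.4 CPM in brain, a mean of 5.49 CPM in liver (SD 1.27) and 4.54, 3.68 and 2.59 CPM in IAT. It was thus low in the tissue where Me1 was highest, and its BAT and brain levels were not separated (edgeR adjusted p = 0.303). The order of BAT and brain, and that of liver and IAT, was the opposite in TPM for Me3.

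Idh1, the cytosolic isocitrate dehydrogenase, was highest in liver, with 1083, 920 and 825 CPM. It read 437 CPM in BAT (SD 51.3), 375 CPM in IAT (SD 67.0) and 35.1 CPM in brain (SD 2.77). The 2 fat depots were not separated (edgeR adjusted p = 0.234), and their order was the opposite in TPM. Idh2, its mitochondrial counterpart, was highest in BAT, with 427, 466 and 414 CPM, against 253 CPM in liver (SD 18.6), 84.7 CPM in IAT (SD 3.70) and 27.2 CPM in brain (SD 3.66). The order of Idh2 was the same under all 4 scalings. Nadk had the smallest spread between tissues, with 478 CPM in liver (SD 22.4), 411 CPM in BAT (SD 30.8), 293 CPM in IAT (SD 33.1) and 54.8 CPM in brain (SD 1.43). Its liver and BAT levels were not separated (edgeR adjusted p = 0.0768), and in TPM liver lay below both fat depots.

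Ratios of the cytosolic to the mitochondrial form, formed from TPM within each library, set the tissues apart. The ratio of Me1 to Me3 in WT was 1509, 661 and 1173 in IAT, 101, 109 and 108 in liver, 26.9, 12.6 and 19.6 in BAT and 0.883, 1.03 and 1.32 in brain. The 4 ranges did not overlap. The ratio of Idh1 to Idh2 was 3.15, 2.60 and 3.76 in IAT, 3.08, 2.40 and 2.49 in liver, 0.894, 1.02 and 0.906 in brain and 0.811, 0.585 and 0.762 in BAT. IAT and liver overlapped with each other and lay above BAT and brain, the 2 tissues in which the mitochondrial form had about as many transcripts as the cytosolic form or more. The ratio of Me1 to Me3 rests on Me3 levels of 1.57 to 3.00 TPM in IAT, which limits its precision there.

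**Figure D2:**
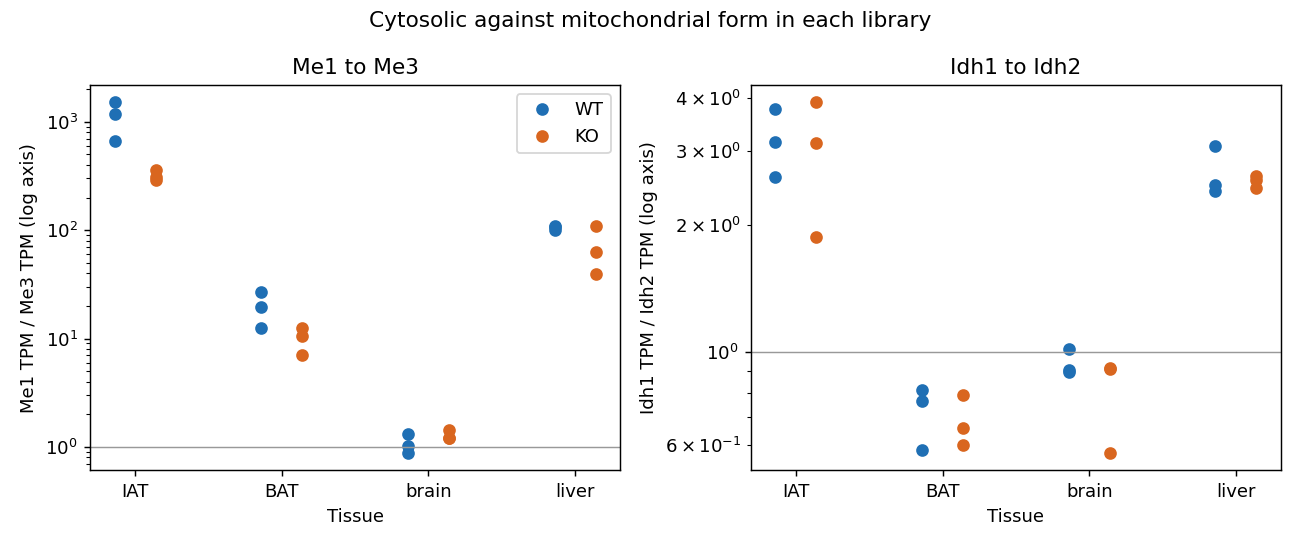
Ratio of Me1 to Me3 (left) and of Idh1 to Idh2 (right), from TPM within each library on log axes, by tissue and genotype; each point is a library and the line marks a ratio of 1. In IAT the KO ratios of Me1 to Me3 (293 to 362) lie below the WT ratios (661 to 1509), and the ratios of Idh1 to Idh2 overlap between genotypes in every tissue.

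For each enzyme the 12129 genes with at least 5 CPM were ranked by how closely their centred log2 CPM followed it over the 12 WT libraries, as a root mean square difference. The nearest to Me1 were Slc25a1, the mitochondrial citrate carrier (0.32), and Pcx, pyruvate carboxylase (0.45). Acaca, the acetyl-CoA carboxylase that starts fatty acid synthesis, was the nearest to Pgd (0.36) and the next after Cavin2 (0.35) for Tkt (0.48). The next after Acaca for Pgd was Esyt1 (0.37). G6pdx lay nearest to Plaat3 (0.29) and Map3k6 (0.44), Taldo1 to Fzd4 (0.19) and Pdhb (0.32), and Pgls to Trappc6a (0.17) and Mrps28 (0.21). Idh1 lay nearest to Fxyd1 (0.16) and Helz2 (0.27), Idh2 to Tmem14c (0.20) and Acat1 (0.22), and Nadk to Pgm2 (0.09). For Me3 the nearest, Grk3 (0.75) and Pde4d (0.76), lay farther away than for any other enzyme of the 10. These distances reflect mainly the 4 tissue means, which the 12 libraries share.

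The change between KO and WT was then tested in each tissue on its own 6 libraries. None of the 10 enzymes passed in any tissue by edgeR's quasi-likelihood test at an adjusted p under 0.05. Among all genes tested, 1.11% passed in liver, 0.54% in BAT, 0.0487% in brain and 0% in IAT (0 of 14097). In IAT not even the targeted gene passed, since Prxl2a, at 4.19% of WT (-4.58, SE 0.41), had an edgeR adjusted p of 0.0912 there. At an unadjusted p under 0.05 there were 2 enzymes in IAT (Me1 and Tkt), 2 in BAT (Me1 and Pgls), 1 in brain (Pgls) and 0 in liver, beside 15.8%, 18.5%, 6.58% and 16.1% of all genes. limma-voom called 0 of the 10 in each tissue, and DESeq2 called 0 in BAT, brain and liver and 2 in IAT, Me1 (adjusted p = 0.00247) and Tkt (adjusted p = 0.00959). DESeq2 called 1138 genes in IAT, of the 19015 in the table, where edgeR called none. A fit of all 24 libraries in edgeR called 3 of the 10 in IAT, Tkt (adjusted p = 0.00285), Me1 (adjusted p = 0.00395) and Taldo1 (adjusted p = 0.0339). Over all genes that fit called 2573 of 16169 in IAT, so such calls were common there. These are bulk tissues, in which fewer cells of a type and less RNA per cell cannot be told apart.

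**Figure D3:**
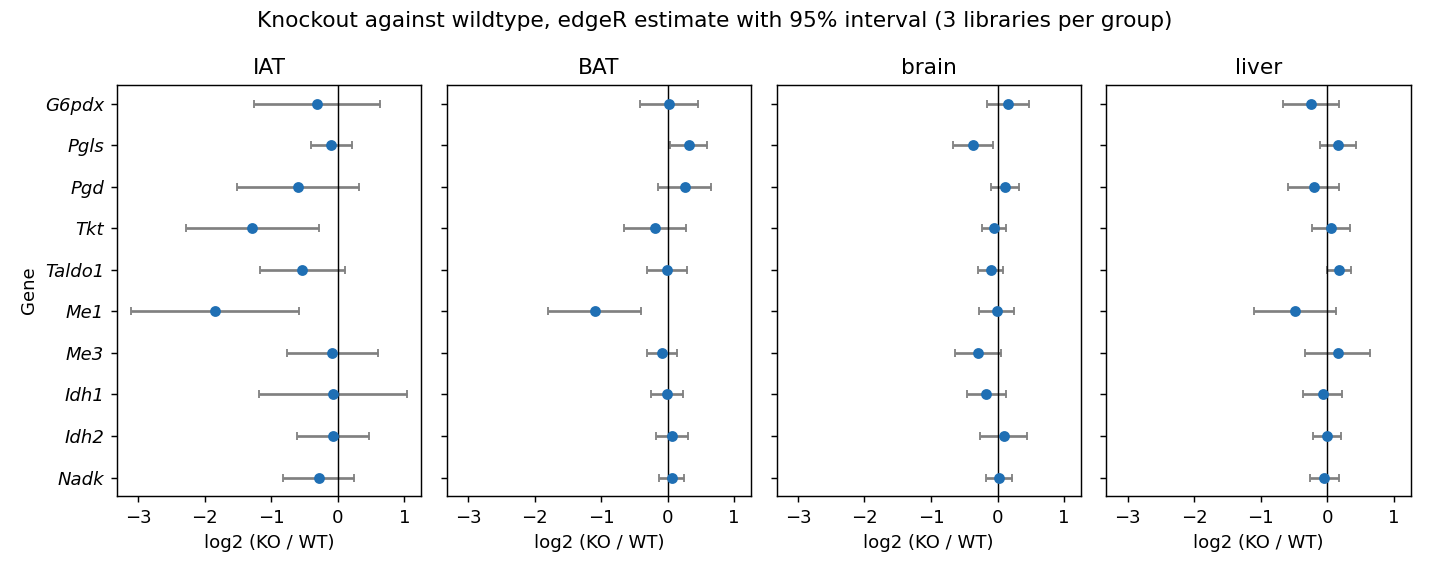
log2 fold change of KO against WT for each enzyme in 4 tissues, with its 95% interval from edgeR (3 libraries per group). Intervals that exclude 0 are those of Me1 and Tkt in IAT, of Me1 and Pgls in BAT and of Pgls in brain, and none of these passed after adjustment over all genes.

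Me1 had the largest estimate of the 10 in both fat depots. In IAT it read 9261, 2971 and 3777 CPM in WT and 1784, 1202 and 1458 CPM in KO, normalised within the tissue. All 3 KO libraries lay below all 3 WT libraries, and WT 1 stood far above the other WT libraries. The log2 fold change was -1.85 (SE 0.52, 95% interval -3.11 to -0.59, edgeR adjusted p = 0.237), and without WT 1 it was -1.20 (edgeR adjusted p = 0.192). In BAT Me1 read 2144, 1006 and 1407 CPM in WT and 883, 759 and 488 CPM in KO. Again no KO library reached a WT library, and the gap between the nearest pair was small beside the spread within either group. The log2 fold change was -1.10 (SE 0.30, 95% interval -1.80 to -0.40, edgeR adjusted p = 0.144), and -0.77 without WT 1, the library with muscle transcripts (edgeR adjusted p = 0.251). In liver Me1 read 452, 364 and 294 CPM in WT and 379, 246 and 167 CPM in KO, which overlapped (-0.49, SE 0.27, edgeR adjusted p = 0.418, and -0.83 to -0.24 with 1 library left out). Its brain means were 75.2 CPM in WT and 74.7 CPM in KO (-0.01, 95% interval -0.27 to 0.26). Groups that did not overlap with KO lower were seen in 9.65% of all genes in IAT and 11.3% in BAT.

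Tkt, the transketolase, had the next largest estimate in IAT. There it read 6964, 3026 and 3424 CPM in WT and 1888, 1863 and 1764 CPM in KO. The KO libraries lay close together and all below WT, and WT 1 was again the highest. The log2 fold change was -1.28 (SE 0.41, 95% interval -2.28 to -0.29, edgeR adjusted p = 0.260), and without WT 1 it was -0.82 (edgeR adjusted p = 0.286). Elsewhere the estimates were -0.20 in BAT (95% interval -0.66 to 0.27), -0.05 in brain (-0.23 to 0.12) and 0.06 in liver (-0.23 to 0.34), with overlapping groups. Taldo1 read 874, 517 and 567 CPM in IAT WT and 393, 536 and 424 CPM in IAT KO, and its groups overlapped through WT 2 and KO 2 (-0.53, SE 0.27, edgeR adjusted p = 0.363, and -0.69 to -0.27 with 1 library left out). In liver Taldo1 read 94.4, 84.9 and 81.7 CPM in WT and 96.2, 99.0 and 100.6 CPM in KO. All KO libraries lay above WT there, as in 10.6% of all genes, with an estimate of 0.18 (SE 0.08, edgeR adjusted p = 0.314).

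**Figure D4:**
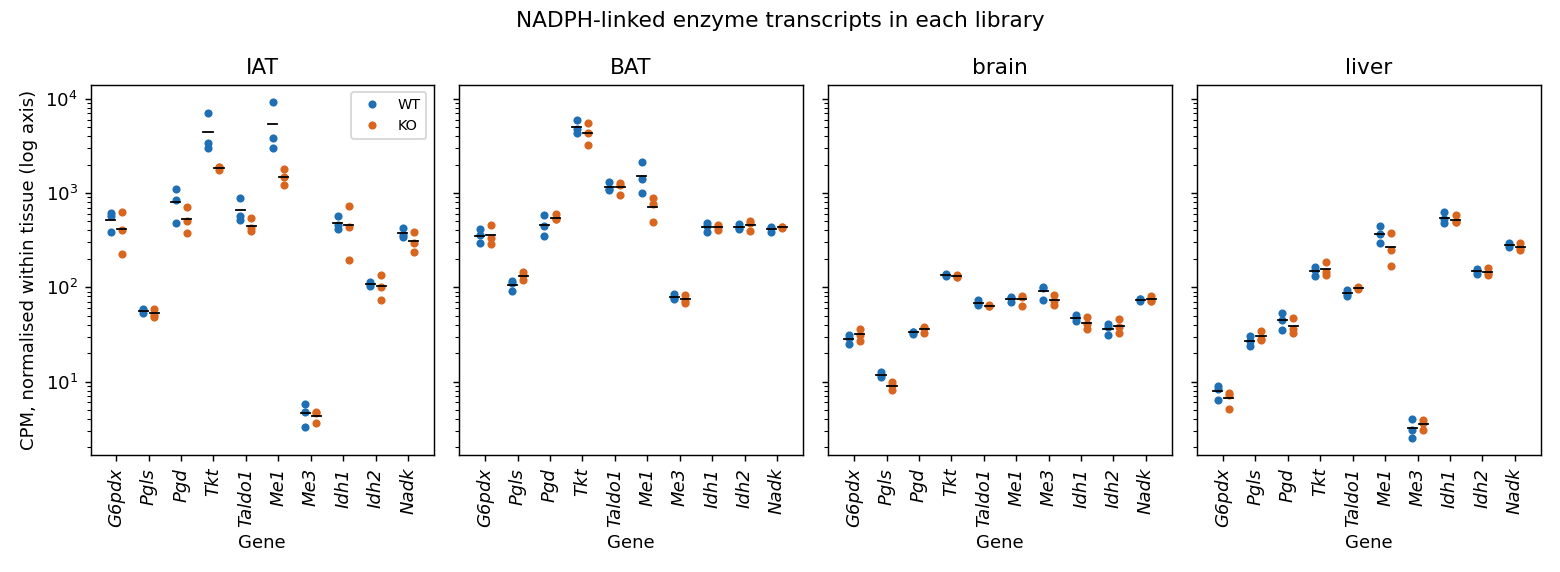
CPM of each enzyme in every library (log axis), normalised within the tissue, with WT and KO side by side and the mean of 3 as a bar. The KO points of Me1 and Tkt in IAT and of Me1 in BAT lie below all WT points, and the groups of G6pdx, Pgd, Me3, Idh1, Idh2 and Nadk overlap in every tissue.

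The oxidative branch showed smaller estimates. G6pdx in IAT read 568, 382 and 608 CPM in WT and 227, 623 and 404 CPM in KO, so the highest and the lowest library were both KO (-0.31, 95% interval -1.26 to 0.63, and -0.73 to -0.018 with 1 library left out). In the other tissues its estimates were 0.02 in BAT, 0.16 in brain and -0.25 in liver. Pgd in IAT read 1091, 482 and 846 CPM in WT and 376, 717 and 505 CPM in KO (-0.60, 95% interval -1.51 to 0.31, and -0.88 to -0.32 with 1 library left out), and its estimates elsewhere ran from -0.21 in liver to 0.26 in BAT. Pgls was the enzyme of the branch whose groups separated. In BAT it read 90.6, 117 and 111 CPM in WT and 119, 134 and 144 CPM in KO, all above WT as in 14.3% of all genes (0.31, SE 0.12, edgeR adjusted p = 0.230). In brain it read 11.6, 11.1 and 12.5 CPM in WT and 8.09, 9.87 and 9.29 CPM in KO, all below WT as in 5.99% of all genes (-0.37, SE 0.13, edgeR adjusted p = 0.749). Taldo1 was the other enzyme of the 10 with all KO libraries below WT in brain, at -0.10 (SE 0.08).

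For Me3, Idh1, Idh2 and Nadk the groups overlapped in every tissue. Me3 read 102, 97.3 and 72.8 CPM in brain WT and 64.9, 83.7 and 72.3 CPM in brain KO (-0.30, SE 0.15, edgeR adjusted p = 0.752). Idh1 in IAT ranged from 412 to 570.2 CPM in WT and from 192 to 734 CPM in KO. The spread of its KO group was the widest of the 10 in IAT relative to the mean, and the interval of its change, -1.19 to 1.04, is too wide to place the change. The estimates of Idh2 were 0.09 in brain, 0.07 in BAT, -0.01 in liver and -0.07 in IAT. Nadk had an estimate of -0.29 in IAT (95% interval -0.82 to 0.25), and its 95% interval lay within -0.26 and 0.24 in BAT, brain and liver.

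In IAT the estimate lay below 0 for 10 of 10 enzymes, beside 48.3% of all genes, with a median of -0.30 against 0.02 over all genes tested. It lay below 0 for 5 of 10 in BAT, 6 of 10 in brain and 6 of 10 in liver, beside 51%, 50.4% and 51% of all genes. The 10 values of a tissue share the same 6 libraries. In IAT the small estimates moved with the libraries included. Without KO 1 alone, those of Idh1 (0.29) and Idh2 (0.11) lay above 0. Those of G6pdx, Pgls and Nadk stayed below 0 whichever single library was left out. Without KO 1 and KO 3 together, the libraries with lymphocyte transcripts, only KO 2 was left. The estimates of G6pdx, Pgls, Idh1, Idh2 and Nadk then lay above 0. Me1 then had -2.14 (edgeR adjusted p = 0.658) and Tkt -1.25 (edgeR adjusted p = 0.682). Without WT 1 and WT 2, the libraries with muscle transcripts, Me1 had -1.40 (edgeR adjusted p = 0.535) and Tkt -0.95 (edgeR adjusted p = 0.778). In these fits the lone library of a group is assumed to vary as the other group does.

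Cell-type markers also differed between the IAT libraries. The 5 adipocyte markers, all detected in every IAT library, summed to 12276 to 14456 CPM in WT and to 6769, 21774 and 13146 CPM in KO 1, KO 2 and KO 3. Among the KO libraries, G6pdx, Pgd, Taldo1, Idh1, Idh2 and Nadk were lowest in KO 1 and highest in KO 2, in the same order as this sum. Me1 and Me3 ran in the opposite order, and Pgls and Tkt in neither. Per 1000 CPM of adipocyte markers, Me1 read 641, 230 and 308 CPM in WT and 264, 55.2 and 111 CPM in KO, so KO 1 then lay above WT 2. Tkt read 482, 234 and 279 CPM in WT and 279, 85.6 and 134 CPM in KO on this scale, and also overlapped. G6pdx read 29.6 to 49.5 CPM in WT and 28.6 to 33.5 CPM in KO, and Idh1 31.5 to 46.5 CPM and 28.4 to 33.7 CPM. In BAT the same ratio for Me1 was 173, 75.0 and 104 CPM in WT and 59.4, 48.6 and 30.6 CPM in KO, which did not overlap. The adipocyte sum that divides it was 12374 to 13527 CPM in BAT WT and 14858 to 15922 CPM in BAT KO. It was thus higher in every KO library, which widens the gap in this ratio. The 6 stromal markers, all detected, summed to 1108, 532 and 724 CPM in BAT WT and 370, 385 and 466 CPM in BAT KO, so every KO sum lay below WT, as for Me1. The 6 macrophage markers summed to 168 CPM in BAT WT 1 and to 63.3 to 79.7 CPM in the other 5 BAT libraries. The 6 macrophage markers of IAT, all detected, summed to 609 to 1651 CPM in WT and 458 to 484 CPM in KO, and the 6 stromal markers to 5407 to 11578 CPM in WT and 3538 to 6069 CPM in KO. The 5 mammary epithelium markers of IAT, all detected, summed to 413 to 693 CPM in WT, highest in WT 1. They summed to 284 to 467 CPM in KO, which overlapped WT. The part of these cell types in the enzyme values was not tested.

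**Figure D5:**
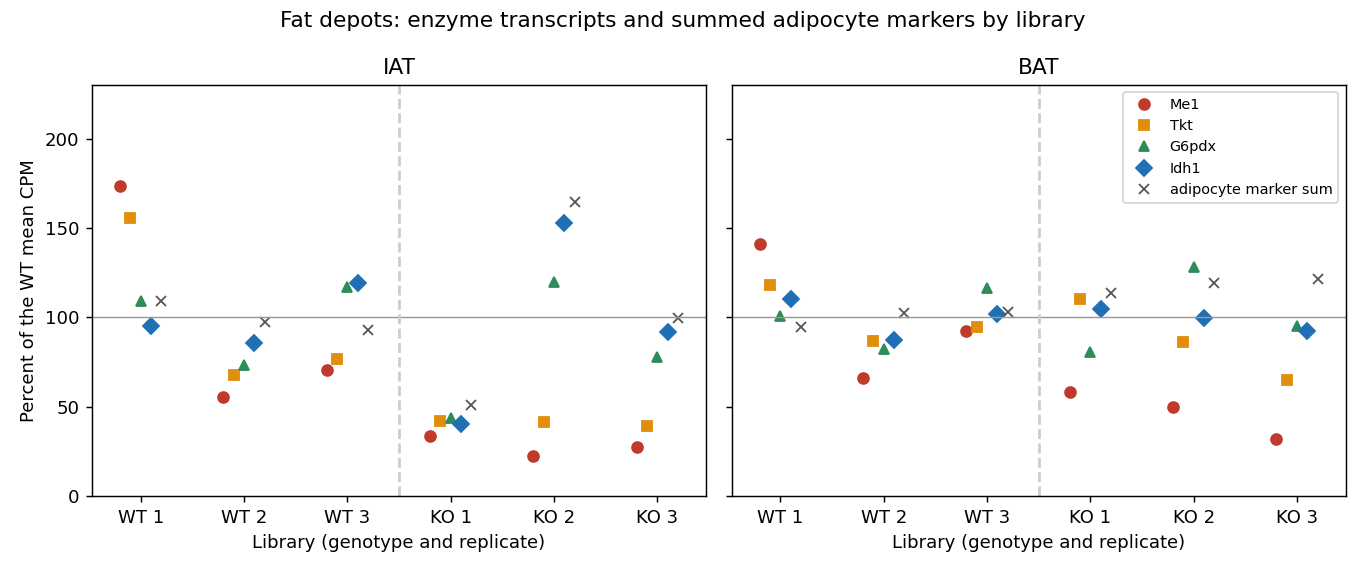
Me1, Tkt, G6pdx, Idh1 and the sum of 5 adipocyte markers in each library of IAT (left) and BAT (right), as percent of the WT mean CPM of that tissue. In the IAT KO libraries Me1 lies between 22.5% and 33.4% and Tkt between 39.4% and 42.2%, whereas G6pdx, Idh1 and the marker sum run from at most 51.2% in KO 1 to at least 120% in KO 2.

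Whether the KO change differed between tissues was tested on all 24 libraries. None of the 10 passed edgeR's F-test on the interaction, which 0.421% of the 16169 genes did. Between single pairs the share was 0.142% for IAT against BAT, 1.38% for IAT against brain and 0.785% for IAT against liver. The smallest values were those of Tkt (edgeR adjusted p = 0.0995), Pgls (edgeR adjusted p = 0.126) and Me1 (edgeR adjusted p = 0.159). The change of Tkt in IAT differed from that in liver by -1.34 on the log2 scale (95% interval -2.06 to -0.62, edgeR adjusted p = 0.0675) and from that in brain by -1.24 (95% interval -1.96 to -0.51, edgeR adjusted p = 0.0757). The change of Me1 in IAT differed from that in brain by -1.85 (95% interval -2.94 to -0.76, edgeR adjusted p = 0.0787), and from that in BAT by -0.76 with an interval of -1.84 to 0.32. Without IAT KO 2, the KO library with the fewest lymphocyte transcripts, Pgls (edgeR adjusted p = 0.0238) and Tkt (edgeR adjusted p = 0.0417) passed, among 2971 genes. With all 24 libraries 68 genes passed. Leaving out that library thus moved the calls over the whole table, and not those of these 2 enzymes in particular.

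The summed level of the enzymes was also compared. The sum of the 10 was 3930 TPM in IAT KO (SD 267), between 3665 and 4199 TPM, against 5180 to 11243 TPM in WT. Tkt averaged 2190 TPM in IAT WT and 956 TPM in IAT KO (SD 69.2), and Me1 2619 TPM and 785 TPM (SD 199). In BAT it was 5485 TPM in KO (SD 889) and 6430 TPM in WT (SD 981), with overlapping ranges, while Tkt averaged 1877 TPM in KO (SD 534) and 2304 TPM in WT, and Me1 309 TPM (SD 93.0) and 706 TPM. Me1 made up 32.8% of the sum in IAT WT (SD 6.44) and 20.3% in IAT KO (SD 6.45), and 10.7% in BAT WT (SD 2.58) and 5.54% in BAT KO (SD 0.86). The Me1 to Me3 ratio in IAT KO was 362, 312 and 293, all under the lowest WT library. No test was made on these sums and shares, which repeat the values above.

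Beside the 10 enzymes, 59 genes of the surrounding pathways were listed in 5 groups. Of the 10 genes of the rest of the pentose phosphate and ribose phosphate routes, 8 passed the count filter in each tissue, and 1 rose in BAT, where 0.389% of all genes did. This was Rpia, ribose-5-phosphate isomerase of the non-oxidative branch, with 22.8, 18.5 and 20.5 CPM in WT and 43.4, 54.8 and 37.7 CPM in KO (1.14, SE 0.15, edgeR adjusted p = 0.0275). It lost the call without WT 2 (edgeR adjusted p = 0.0819), WT 3 (0.132), KO 1 (0.0510) or KO 2 (0.0835), and in the limma-trend fits on log2(TPM + 1) and log2(TPM + 0.1) (adjusted p = 0.0700 and 0.0654). None of the 8 fell in any tissue.

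Of the 10 other sources of NADPH or transhydrogenase, all were tested in IAT, BAT and brain and 8 in liver, and 1 rose in brain and 1 in liver, the same gene. Of all genes 0.0139% rose in brain and 0.576% in liver. Nnt, the mitochondrial transhydrogenase that forms NADPH from NADH, read 49.1, 42.7 and 48.7 CPM in liver WT and 152, 150 and 141 CPM in liver KO, and rose by 1.66 (SE 0.08, edgeR adjusted p = 5.08e-05). Brain Nnt went from a mean of 23.0 CPM (SD 1.32) to one of 40.8 CPM (SD 1.46) and rose by 0.82 (SE 0.09, edgeR adjusted p = 0.0445), a call that was lost whichever library was left out (edgeR adjusted p from 0.0890 to 0.326). Brain Nnt also missed the threshold with limma-voom (adjusted p = 0.0568), in the edgeR fit of all 24 libraries (adjusted p = 0.132) and in both limma-trend fits (adjusted p = 0.0535 and 0.0559). In IAT it read 18.5, 21.8 and 25.2 CPM in WT and 46.4, 53.9 and 52.1 CPM in KO, with an estimate of 1.22 that did not pass (edgeR adjusted p = 0.128), and in BAT the groups overlapped (0.51, SE 0.29). Nnt is known to carry a deletion in the C57BL/6J substrain, and the strain of either group is not given here.

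The malate, citrate and isocitrate supply group had 13 genes, all tested, and 0 passed by edgeR in any tissue. Their estimates lay below 0 for 13 of 13 in IAT (median -0.51), 4 in BAT, 9 in brain and 7 in liver. Slc25a10, the mitochondrial dicarboxylate carrier, had estimates of -0.86 in IAT (edgeR adjusted p = 0.260) and -1.51 in BAT (edgeR adjusted p = 0.0946). All its KO libraries lay below WT in both, as in 9.65% of all genes in IAT and 11.3% in BAT. Pcx, which feeds oxaloacetate to the malate route, had -1.05 in IAT (edgeR adjusted p = 0.277). Of 16 users of NADPH, 1 rose, Cbr1, a carbonyl reductase, in liver, from 73.6 CPM (SD 2.91) to 105 CPM (SD 8.35), by 0.52 (SE 0.08, edgeR adjusted p = 0.0256). It lost the call when any 1 library other than KO 1 was left out (edgeR adjusted p up to 0.0998), in the edgeR fit of all 24 libraries (adjusted p = 0.318) and in the limma-trend fits on log2(TPM + 1) and log2(TPM + 0.1) (adjusted p = 0.0741 and 0.0721). Of 10 regulators, 1 rose, Nfe2l2, which encodes the antioxidant regulator NRF2, in BAT, from 130 CPM (SD 15.4) to 211 CPM (SD 16.9), by 0.70 (SE 0.11, edgeR adjusted p = 0.0471). It lost the call when any 1 library other than WT 1 was left out (edgeR adjusted p up to 0.193), and in both limma-trend fits (adjusted p = 0.112 and 0.111). By edgeR, 0 genes of the 5 groups fell in any tissue, beside 0.535% of all genes in liver, 0.151% in BAT, 0.0348% in brain and 0% in IAT.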

How the data were processed

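The authors deposited 1 table of 19015 genes with an expected count (a read estimate without normalisation, as the deposited headers name it) and a TPM value (scaled within each library by the authors) for each of 24 libraries. The submitters' processing notes name the build GRCm38.p6, RSEM 1.3.1, Bowtie2 2.3.4.3 and DESeq2 1.4.5. They do not give the annotation, the strand setting or any filter. RefSeq held 18958 of the genes (99.7%). A further 48 per-sample columns were not used. Depth was 16147508 to 17323714 counts in IAT, 12327459 to 12948149 in BAT, 15788266 to 17293215 in brain and 17034043 to 18257788 in liver, so depth differed little within a tissue.

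Expected counts were rounded and tested with edgeR 4.0.16 in R 4.3.3 (filterByExpr, TMM factors, quasi-likelihood F-test, Benjamini-Hochberg over all genes, called under 0.05), on the 6 libraries of a tissue for KO against WT, on all 24 for the interaction and on the 12 WT libraries for tissue levels. Standard errors come from the F statistic. Alternatives were RLE factors, no filter, DESeq2 1.42.0, voom and trend fits of limma 3.58.1 (the latter on log2(TPM + 1) and log2(TPM + 0.1)), library totals, all 24 libraries, the replicate number as a block and each library left out. Leaving out KO 1 with KO 3, or WT 1 with WT 2, of IAT was added after seeing the data, for their lymphocyte and muscle markers. The tests were also run on counts simulated from a fitted dispersion trend, with an outcome not reported here. The simulation held no libraries that stand apart as in IAT, so it cannot show how the tests act on such libraries.

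The enzymes, lists and tests were chosen with earlier results of these data known. Named genes are the 10 enzymes, Prxl2a, up to 4 called genes of each pathway list, or else up to 2 with the smallest unadjusted p, and the 2 nearest genes in pattern to each enzyme. Some genes that this rule names are not reported here. Labels do not say whether replicates are separate mice in each tissue, so p-values measure the spread between these libraries. No libraries matched within sampling noise (Pearson 0.929 to 0.996 across genes).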

Additional observations from a re-analysis of the deposited data

How the results depend on the processing

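The number of enzymes called between KO and WT was 0 in BAT, brain and liver under every alternative, and all 10 differed between WT tissues under every alternative. In IAT the number was 2 with DESeq2 (among 1138 genes), 3 with all 24 libraries in 1 edgeR fit (among 2573) and 0 otherwise. That of the interaction ran from 0 to 2 when libraries were left out singly, with the 2 among 2971 genes. Me1 (-2.14 to -1.20) and Tkt (-1.50 to -0.82) stayed below 0 in IAT under every alternative. On log2(TPM + 1) and log2(TPM + 0.1) the sign turned for Me3 in IAT (0.079 and 0.12), for G6pdx (-0.10 and -0.10), Idh2 (-0.045 and -0.045) and Nadk (-0.039 and -0.040) in BAT and for Tkt in liver (-0.039 and -0.040). Without IAT KO 1 and KO 3 the values were 0.27 for G6pdx, 0.065 for Pgls, 0.62 for Idh1, 0.32 for Idh2 and 0.050 for Nadk, and without IAT WT 1 and WT 2 Me3 had 0.36. Leaving out single libraries turned values near 0, with ranges in IAT of -0.28 to 0.11 for Me3, -0.61 to 0.29 for Idh1 and -0.32 to 0.11 for Idh2. In BAT the ranges were -0.19 to 0.15 for G6pdx, -0.10 to 0.10 for Taldo1, -0.10 to 0.056 for Idh1 and -0.0022 to 0.16 for Idh2. In brain they were -0.075 to 0.10 for Me1, -0.044 to 0.20 for Idh2 and -0.038 to 0.061 for Nadk, and in liver -0.074 to 0.15 for Tkt, -0.16 to 0.044 for Idh1, -0.071 to 0.046 for Idh2 and -0.11 to 0.011 for Nadk. Over all genes edgeR called 0 in IAT and DESeq2 1138, with 68 and 455 in BAT, 7 and 55 in brain, and 137 and 378 in liver. Leaving out single libraries gave edgeR counts of 0 to 1760 in IAT (1760 without KO 2, 192 without WT 1), 2 to 94 in BAT, 1 to 9 in brain and 58 to 103 in liver, and without a filter liver had 218. The cause was not tested. The test had little reach in IAT, where even the loss of Prxl2a did not pass (edgeR adjusted p = 0.0912). With the same 3 libraries a group, Prxl2a passed in BAT (edgeR adjusted p = 1.09e-05), brain (1.31e-04) and liver (1.08e-05).

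Of the correlations between libraries with the same replicate number, 2 of 12 between WT and KO and 7 of 36 between tissues were over 0.1. The highest was 0.409, for brain WT 2 with brain KO 2. So few were not taken as pairing, but shared batches remain unsettled. In liver the red cell markers summed to 250.1 CPM in WT 1 and 209 CPM in KO 1, against 39.7 to 60.2 CPM in the other 4 libraries (r = 0.237 for that pair). With the replicate number as a block, 0 enzymes were called in each tissue and for the interaction, and Me1 in IAT had -1.68 (edgeR adjusted p = 0.575). Over all genes the block moved the calls from 68 to 1 in BAT, from 7 to 4 in brain and from 137 to 228 in liver, and Rpia (edgeR adjusted p = 0.102), Nfe2l2 (0.0933) and brain Nnt (0.215) lost theirs.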

Other observations

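Other genes of lipid synthesis, of which Fasn and Acly were picked after their values were seen, were lower in IAT KO without passing the test. Fasn, fatty acid synthase, read 33193, 14745 and 16407 CPM in WT and 8550, 10285 and 9042 CPM in KO, and Acly, which makes cytosolic acetyl-CoA from citrate, read 7814, 2290 and 2866 CPM in WT and 1885, 1686 and 1745 CPM in KO. Elovl6, a fatty acid elongase, read 2284, 603 and 761 CPM in WT and 450.1, 218 and 332 CPM in KO (-1.87, SE 0.58, edgeR adjusted p = 0.254). Fasn had an edgeR adjusted p of 0.362 and Acly one of 0.311. The groups of these 3 genes did not overlap, with KO lower, as in 9.65% of all genes in IAT. WT 1 was the highest of the 6. The regulators Srebf1, Mlxipl and Thrsp were also higher in WT 1 than in WT 2 and WT 3, but their KO libraries overlapped WT.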
